A study of Mus musculus with 9 samples.

Results

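Radial glia, astrocytes and oligodendrocyte lineage cells were followed in the embryonic striatum through 30 genes of 44886 counted. The genes are the rows whose Ensembl identifier corresponds to the listed symbols in the GENCODE M21 annotation of the mouse genome. The list was chosen with earlier results of these data known, so the genes were not tested as a set. Of the 30 genes, 21 are used for radial glia and astrocytes and 9 for the oligodendrocyte lineage. RNA was sequenced from the striatum of 9 embryos at E17.5, with 3 embryos in each of 3 groups. The study asked what the loss of Ebf1, a transcription factor of direct pathway projection neurons, changes in the developing striatum. Embryos labelled Islet1Cre;Ebf1fl/- carried 1 floxed and 1 null Ebf1 allele with a Cre recombinase expressed from Islet1, which recombines in direct pathway projection neurons and cholinergic interneurons. Embryos labelled Dlx5/6::Cre;Ebf1fl/- carried the same Ebf1 alleles with a Cre driven by Dlx5/6 regulatory sequence, which recombines in all striatal projection neurons and interneurons. The third group is labelled Control, and the study used heterozygous embryos for this purpose. The study places Islet1Cre recombination in neurons of the striatal mantle, and Dlx5/6::Cre recombination in projection neurons of both the subventricular zone and the mantle. The glial genes were measured in the whole tissue, and recombination in glial lineage cells was not tested. The labels give the strain as C57BL/6, whereas the study kept the Islet1Cre line on a B6D2F1/J background.

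In the ventral telencephalon, radial glia line the ventricle, divide to give neurons and later give rise to astrocytes and oligodendrocyte precursors. They hold intermediate filaments such as vimentin and nestin, keep Notch signalling on, and already carry the glutamate transporter and fatty acid binding protein that astrocytes retain. Oligodendrocyte precursors carry the receptor Pdgfra and the factors Olig1, Olig2 and Sox10, and then pass through a Gpr17-positive stage before they make myelin. The RNA came from whole tissue, so that fewer cells of a type and less RNA per cell cannot be told apart.

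Each library held 16548083 to 41507049 counts. Values below are normalized counts, that is read counts divided by a size factor for the library. Changes are log2 fold changes from edgeR's quasi-likelihood test with all 9 embryos in the fit, and adjusted p-values are Benjamini-Hochberg values over the 16368 genes that passed the filter on low counts. A gene was called at an adjusted p below 0.05. The names of the groups stand for the labels throughout.

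Before the glial genes are compared, 1 library has to be described. The first Dlx5/6::Cre;Ebf1fl/- embryo stood apart from the other 8. Its 6 markers of dividing cells summed to 15122 normalized counts, against 2607 to 4374 in the others. Its 4 markers of ventral telencephalic progenitors summed to 18165, against 4059 to 8381 in the others, and all 6 mutant embryos lay above the controls for this sum (4059 to 6057). The 6 markers of cortical excitatory neurons summed to 5495 there and to 937 to 2894 elsewhere, whereas its 5 markers of striatal projection neurons gave the lowest sum, 51727 against 59673 to 70119. For the cortical sum, all Dlx5/6::Cre;Ebf1fl/- embryos lay above all embryos of the other groups, the lowest at 2369 against at most 2343. The main counts, and the fold changes printed for glial genes high in this embryo, are therefore also given without it. How its tissue content bears on the glial genes was not tested. Ebf1 counts per gene did not check the genotypes: the log2 fold change was 0.41 in the Islet1Cre;Ebf1fl/- embryos and 0.33 in Dlx5/6::Cre;Ebf1fl/- embryos (adjusted p = 0.599 and 0.399). Why they were not lower was not tested. By immunostaining, the study found no Ebf1 protein in the striatum of either mutant at E17.5.

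Read per length, in TPM (transcripts scaled to library and length), the glial genes spanned a wide range in control striatum. Fabp7, the brain fatty acid binding protein of radial glia, was far ahead with 1072 TPM. It was followed by Glul, which makes glutamine from glutamate, with 150 TPM, by the oligodendrocyte lineage factor Olig1 with 110 TPM and by the lipid carrier Apoe with 92.8 TPM. The lowest were the gap junction protein Gja1 (2.41 TPM), the water channel Aqp4 (1.87 TPM) and Gfap, the filament of mature astrocytes (0.119 TPM). The median over the 30 genes was 17.9 TPM. Only Gfap failed the filter on low counts, with 0 to 16.2 normalized counts, and so 29 of the 30 genes were tested. It had 0 counts in the second control, where 3 counts, the upper limit that a count of 0 allows, correspond to 0.0803 CPM (counting error only).

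**Figure D1:**
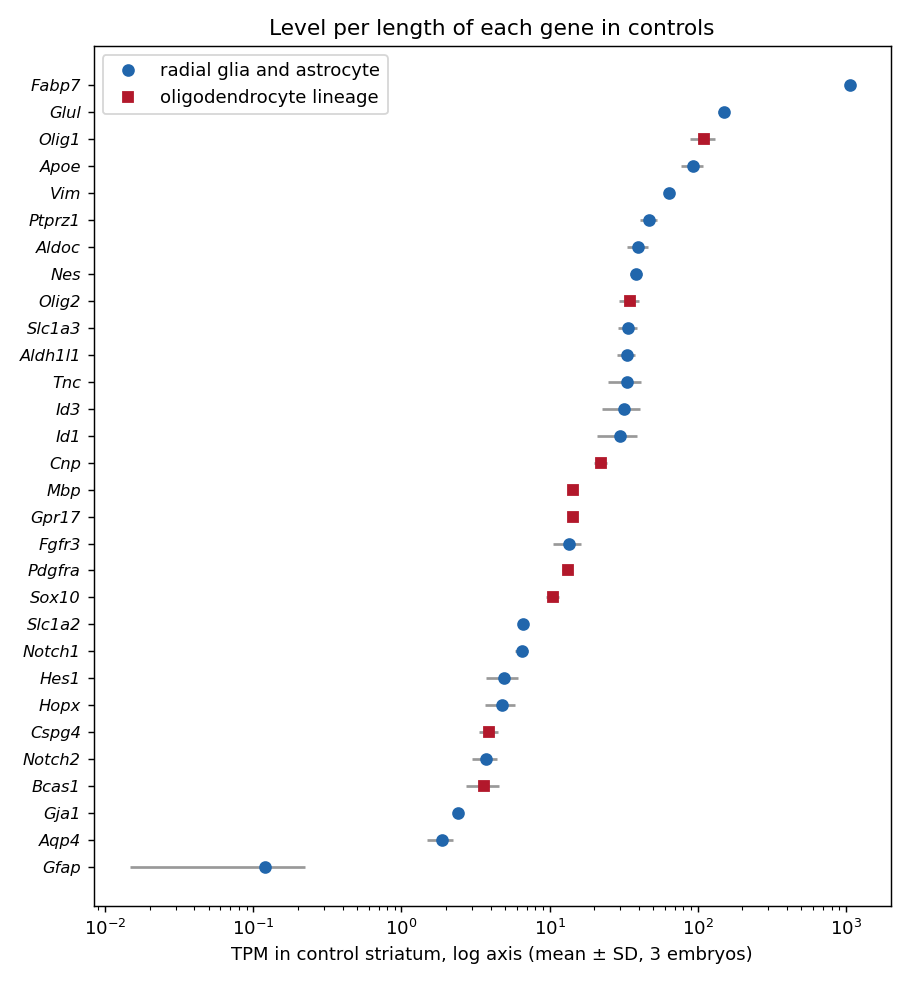
Level per length of the 30 genes in control striatum, in TPM on a log axis, as the mean and SD of 3 embryos. Blue circles are radial glia and astrocyte genes and red squares are oligodendrocyte lineage genes. Fabp7 is at the top with 1072 TPM and Gfap at the bottom with 0.119 TPM.

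In the Islet1Cre;Ebf1fl/- embryos, no glial gene was called against the controls, where 0.971% of all genes tested were. At an unadjusted p below 0.05 there was 1 gene, Cnp, against 7.93% of all genes. DESeq2 called 1 glial gene, and 395 of 16624 genes in all. Of the 29 genes, 9 had a higher and 20 a lower mean estimate, with a median log2 fold change of -0.11, while 49.5% of all genes tested lay above 0. In the Dlx5/6::Cre;Ebf1fl/- embryos, 2 glial genes rose against the controls, namely Slc1a2 and Cnp, and none fell. Over all genes tested, 1.05% were called higher and 1.34% lower in that comparison, and 5 glial genes were at an unadjusted p below 0.05, where 15.5% of all genes were. Here 24 of the 29 estimates lay above 0 and 5 below, with a median of 0.25, against 52.3% above 0 over all genes tested. Leaving out the first Dlx5/6::Cre;Ebf1fl/- embryo, 18 lay above 0 and 11 below, with a median of 0.11, and 8021 of 16368 genes lay above 0. At an unadjusted p below 0.05, 5 glial genes were then higher and 2 lower (Tnc and Nes), where 1471 of all genes were higher and 1378 lower. With all embryos, the 5 genes at that level were all higher. Between the mutants, no glial gene and no gene of the whole table was called (0% by edgeR). At an unadjusted p below 0.05 there were 7 glial genes, all higher in the Dlx5/6::Cre;Ebf1fl/- embryos, with 2.41% of all genes higher at that level. DESeq2 called 1 glial gene, Slc1a2, and 17 of 15632 genes in all. Of the 29 estimates between the mutants, 28 lay above 0 (median 0.35), against 53.3% of all genes tested. Without the first Dlx5/6::Cre;Ebf1fl/- embryo, 21 lay above 0 and 8 below (median 0.19), where 8205 of 16368 genes tested lay above 0. In that fit 7 glial genes were higher and 2 lower at an unadjusted p below 0.05, none called. Of the 16368 genes, 429 were higher and 520 lower at that level. For 3 genes (Slc1a2, Glul and Cnp) all 3 Dlx5/6::Cre;Ebf1fl/- embryos lay above all 3 Islet1Cre;Ebf1fl/- embryos, and for none below, where 4.96% and 5.39% of all genes did.

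**Figure D2:**
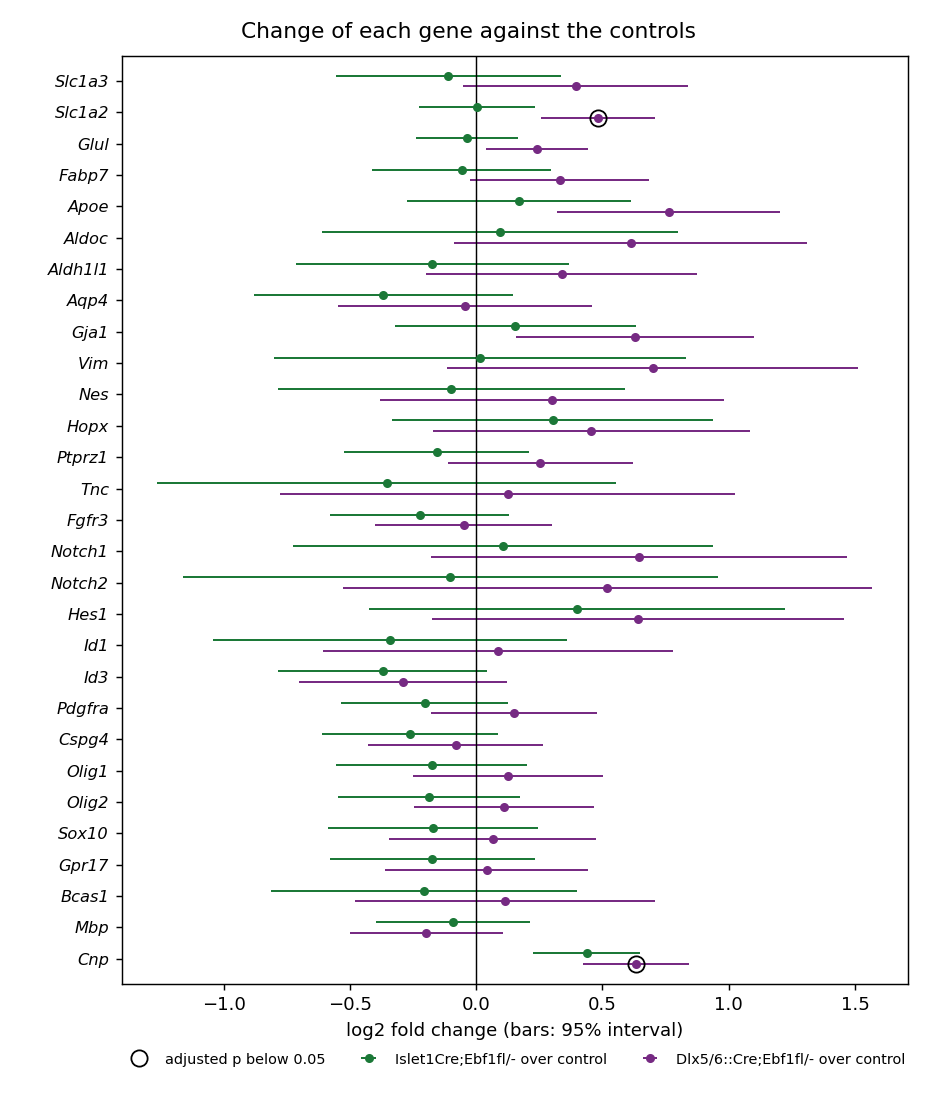
Log2 fold change of the 29 tested genes against the controls, with 95% intervals, for the Islet1Cre;Ebf1fl/- embryos (green) and Dlx5/6::Cre;Ebf1fl/- embryos (purple). Black rings mark the 2 calls, Slc1a2 at 0.48 and Cnp at 0.63. Both comparisons use the same 3 controls.

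The higher estimates in the Dlx5/6::Cre;Ebf1fl/- embryos did not come equally from the 3 embryos. Among the 20 radial glia and astrocyte genes tested, the first of these embryos had the highest value of all 9 for 14 genes (70%), against 22.9% of all genes tested. Without it, the median log2 fold change of the 20 genes went from 0.37 to 0.03, with 11 estimates above 0 and 9 below. For the 9 oligodendrocyte lineage genes the pattern was another one. The first embryo was the highest for none of them, and the second was the highest for 6 (66.7%, against 11.2% of all genes tested). The median of these 9 genes was 0.11 with all embryos and 0.22 without the first. Thus most of the radial glial and most of the oligodendrocyte genes were highest in a different single embryo of the same genotype.

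**Figure D3:**
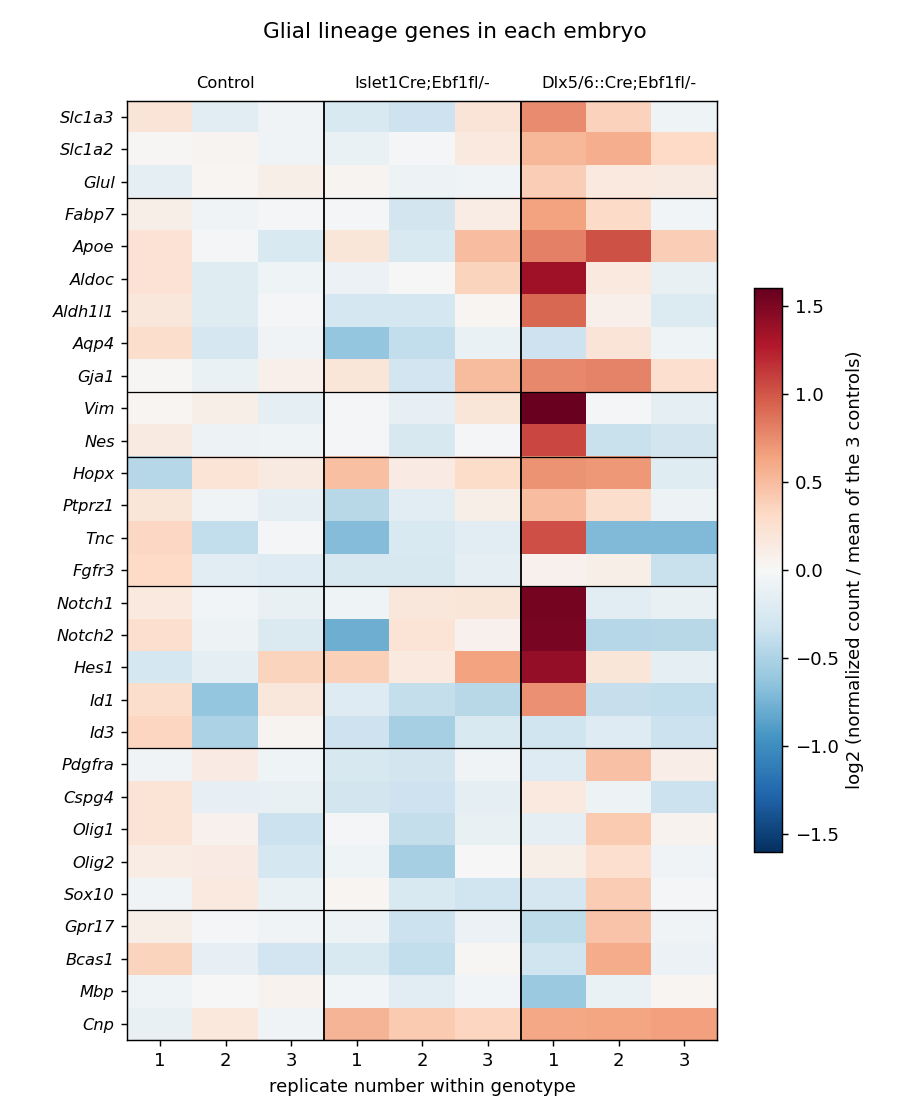
Log2 ratio of each gene's normalized count to the mean of the 3 controls, for 29 genes (rows, grouped by role) in 9 embryos (columns). The first Dlx5/6::Cre;Ebf1fl/- embryo is dark red for Vim, Notch1, Notch2, Hes1 and Aldoc, whereas Cnp is red in all 6 mutant embryos.

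Glutamate uptake and glutamine synthesis gave the first of both calls. Slc1a2, the glutamate transporter GLT-1 of astrocytes, had normalized counts of 816, 829 and 774 in the controls, 746, 789.6 and 895 in Islet1Cre;Ebf1fl/- and 1169, 1206 and 1008 in Dlx5/6::Cre;Ebf1fl/- embryos. The 3 values of the last group lay above all the others, and the other groups overlapped. It lies at chr2:102658659-102790784 on the plus strand (GRCm38), and an antisense gene within it, Gm13872, had 0 counts in all embryos. The log2 fold change was 0.48 (SE 0.103, adjusted p = 0.0356) in the Dlx5/6::Cre;Ebf1fl/- embryos, 95% interval 0.26 to 0.71, and 0.00 (SE 0.104, adjusted p = 0.999) in Islet1Cre;Ebf1fl/- embryos. Without the first Dlx5/6::Cre;Ebf1fl/- embryo it was 0.45 (adjusted p = 0.0415). Between the mutants it was 0.48 (SE 0.103, adjusted p = 0.868), and 0.45 (adjusted p = 0.807) without that embryo. The call was lost when any 1 control was left out (adjusted p = 0.0931 to 0.134), without the second Dlx5/6::Cre;Ebf1fl/- embryo (0.122), without the second Islet1Cre;Ebf1fl/- embryo (0.0571) and with the replicate number as a block (0.0701). Glul had 4192, 4717 and 4949 in the controls, 4754, 4362 and 4424 in Islet1Cre;Ebf1fl/- and 6092, 5167 and 5118 in Dlx5/6::Cre;Ebf1fl/- embryos. Every Dlx5/6::Cre;Ebf1fl/- embryo was above every other embryo, with a log2 fold change of 0.24 (SE 0.0917, adjusted p = 0.237) that did not pass the threshold, and 0.15 without the first. Slc1a3, the GLAST transporter of radial glia and astrocytes, had 3097, 2381 and 2576 in the controls, 2269.7, 2134 and 3091 in Islet1Cre;Ebf1fl/- and 4549.7, 3477 and 2564 in Dlx5/6::Cre;Ebf1fl/- embryos. Its highest value was again that of the first Dlx5/6::Cre;Ebf1fl/- embryo, and the last of that group lay within the controls. The log2 fold change went from 0.39 to 0.17 without the first.

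Among genes of astrocyte metabolism, lipid transport and channels, none was called in either comparison. Apoe had 2155, 1817 and 1555 in the controls, 2098, 1557 and 2595 in Islet1Cre;Ebf1fl/- and 3235, 3727 and 2425 in Dlx5/6::Cre;Ebf1fl/- embryos. All 3 Dlx5/6::Cre;Ebf1fl/- embryos lay above the controls, but the lowest of them was below the highest Islet1Cre;Ebf1fl/- embryo. The log2 fold change was 0.76 (SE 0.2, adjusted p = 0.0851) in the Dlx5/6::Cre;Ebf1fl/- embryos, and 0.74 without the first of them. DESeq2 called Apoe (adjusted p = 0.00445), as did edgeR without a filter on low counts (0.00333). Gja1, which forms the gap junctions of astrocytes, had 233, 212 and 242 in the controls, 262, 186 and 326 in Islet1Cre;Ebf1fl/- and 389.7, 398 and 277 in Dlx5/6::Cre;Ebf1fl/- embryos. Here too the 3 Dlx5/6::Cre;Ebf1fl/- embryos were above the controls, at 0.63 (SE 0.214, adjusted p = 0.187) and 0.55 without the first, and they overlapped with the other mutant. Fabp7 had 13250.3, 11943 and 12144 in the controls, 12305, 10156 and 13484 in Islet1Cre;Ebf1fl/- and 19477, 15441 and 12026 in Dlx5/6::Cre;Ebf1fl/- embryos. The last Dlx5/6::Cre;Ebf1fl/- embryo fell among the controls, and the log2 fold change went from 0.33 to 0.14 without the first. Aldoc, a glycolytic enzyme of astrocytes, reached 3061 in that first embryo and 1045 to 1539 in the other 8. Aldh1l1, a folate enzyme that marks astrocytes, reached 2623 against 1139 to 1580.2. Without that embryo, the log2 fold changes of the Dlx5/6::Cre;Ebf1fl/- embryos over the controls were 0.03 for Aldoc and -0.07 for Aldh1l1. For Aqp4 the means of controls, Islet1Cre;Ebf1fl/- and Dlx5/6::Cre;Ebf1fl/- embryos were 108 ± 21, 84.4 ± 14.9 and 105 ± 19.2 (SD, n = 3), and the first Dlx5/6::Cre;Ebf1fl/- embryo was not the highest.

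In all, 5 glial genes had all 3 Dlx5/6::Cre;Ebf1fl/- embryos above all 3 controls (Slc1a2, Glul, Apoe, Gja1 and Cnp), where 9.63% of all genes tested did, and none had them all below, as 11.3% of all genes did.

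**Figure D4:**
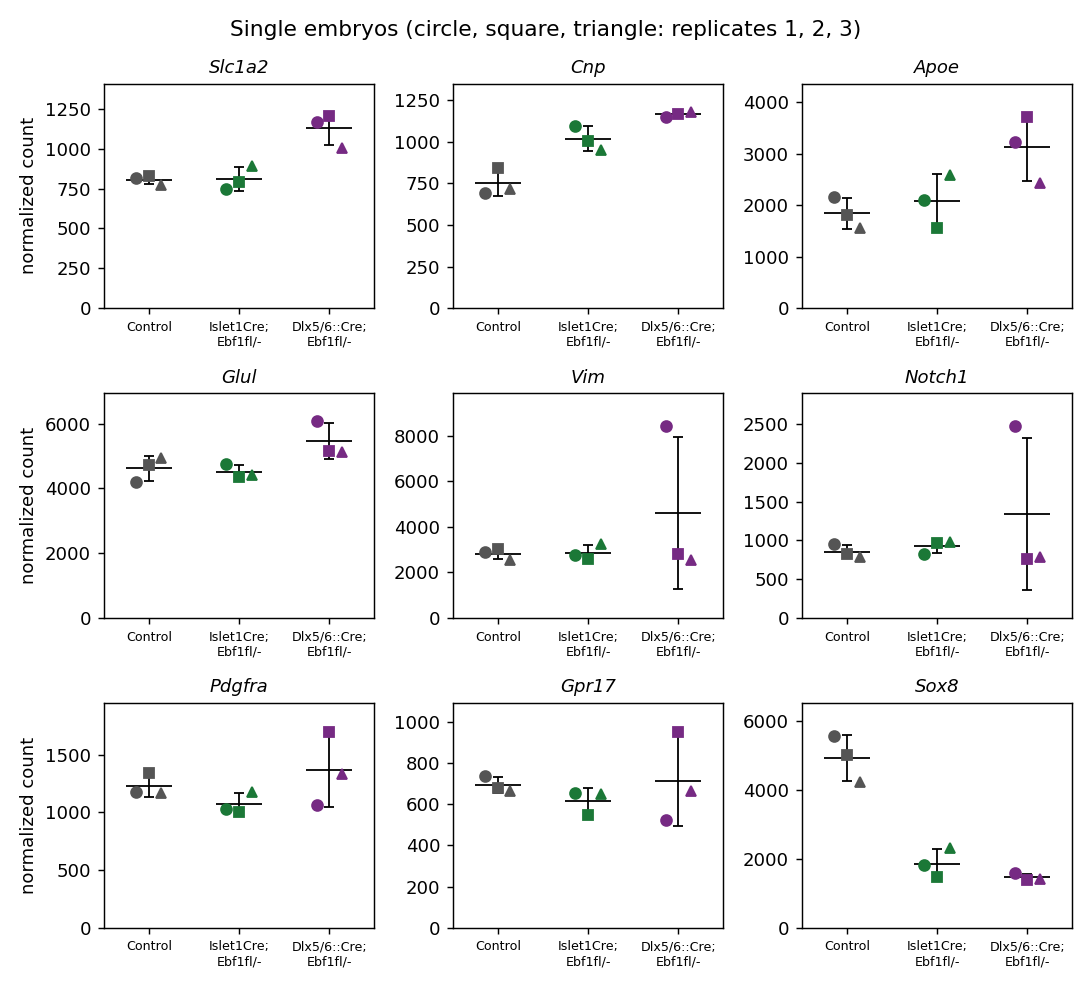
Normalized counts of 9 genes in single embryos (circles, squares and triangles for replicates 1, 2 and 3), with the mean and SD of each group. Slc1a2 and Cnp are higher in all 3 Dlx5/6::Cre;Ebf1fl/- embryos. Vim and Notch1 are high only in the first of these, at 8449.6 and 2477.

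The intermediate filaments of radial glia were high in that single embryo. Vim, encoding vimentin, had 2895, 3024 and 2566 in the controls, 2785, 2581 and 3230.5 in Islet1Cre;Ebf1fl/- and 8449.6, 2795 and 2539.8 in Dlx5/6::Cre;Ebf1fl/- embryos. The first Dlx5/6::Cre;Ebf1fl/- embryo had 3.02 times the mean of the other 8, while the rest of its group lay near the controls. Nes, encoding nestin, had 2525, 2161 and 2193 in the controls, 2268, 1916 and 2264 in Islet1Cre;Ebf1fl/- and 4813, 1789 and 1875 in Dlx5/6::Cre;Ebf1fl/- embryos. Again 1 embryo was high, and the other 2 of its genotype were below all the remaining embryos. With all embryos the log2 fold changes were 0.70 (SE 0.369, adjusted p = 0.39) for Vim and 0.30 (SE 0.309, adjusted p = 0.68) for Nes. Both turned to below 0 without the first embryo, at -0.09 (adjusted p = 0.739) and -0.33 (adjusted p = 0.122).

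Genes of the radial glial surface and matrix were not called. Ptprz1, a receptor phosphatase of radial glia and oligodendrocyte precursors, had 7054, 5935 and 5543 in the controls, 4559.8, 5485 and 6617 in Islet1Cre;Ebf1fl/- and 8709, 7535 and 5853 in Dlx5/6::Cre;Ebf1fl/- embryos, so that the groups overlapped. Tnc, encoding the matrix protein tenascin C, had 2990.3, 1815 and 2354 in the controls, 1471, 2018 and 2119 in Islet1Cre;Ebf1fl/- and 4896, 1465 and 1461 in Dlx5/6::Cre;Ebf1fl/- embryos. The other 2 Dlx5/6::Cre;Ebf1fl/- embryos were the lowest of all 9, next to the highest value in the first, and the log2 fold change turned from 0.13 to -0.71 (adjusted p = 0.0776) without it. The growth factor receptor gene Fgfr3 ranged from 701 to 1114. Hopx, a homeodomain gene of radial glia, ranged from 48.8 to 110.1, and 27.2% of its exon bases overlap an antisense gene.

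Notch keeps radial glia from differentiating, and the Id genes act downstream of bone morphogenetic protein signals. None of the 5 genes of this group was called. Notch1 was 2477 in the first Dlx5/6::Cre;Ebf1fl/- embryo and 755 to 975 in the other 8. Notch2 was 1056 against 216 to 446, and the target gene Hes1 was 245 against 76 to 145. All 3 were thus beyond the range of every other embryo. The log2 fold changes in the Dlx5/6::Cre;Ebf1fl/- embryos were 0.64 for Notch1, 0.52 for Notch2 and 0.64 for Hes1 with all embryos. Without the first they were -0.15, -0.45 and 0.03. Id1 had 393, 211 and 365 in the controls, 280.0, 247 and 238 in Islet1Cre;Ebf1fl/- and 535, 249.5 and 245 in Dlx5/6::Cre;Ebf1fl/- embryos, with the same embryo on top. Without it, the log2 fold change of Id1 in the Dlx5/6::Cre;Ebf1fl/- embryos was -0.385. Id3 had 668, 373 and 544 in the controls, 420.0, 366 and 446 in Islet1Cre;Ebf1fl/- and 423, 458 and 417 in Dlx5/6::Cre;Ebf1fl/- embryos. It was lower than its control mean in all 6 mutant embryos, but the second control lay among them, and its log2 fold changes were -0.37 (SE 0.188, adjusted p = 0.725) and -0.29 (SE 0.186, adjusted p = 0.489).

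**Figure D5:**
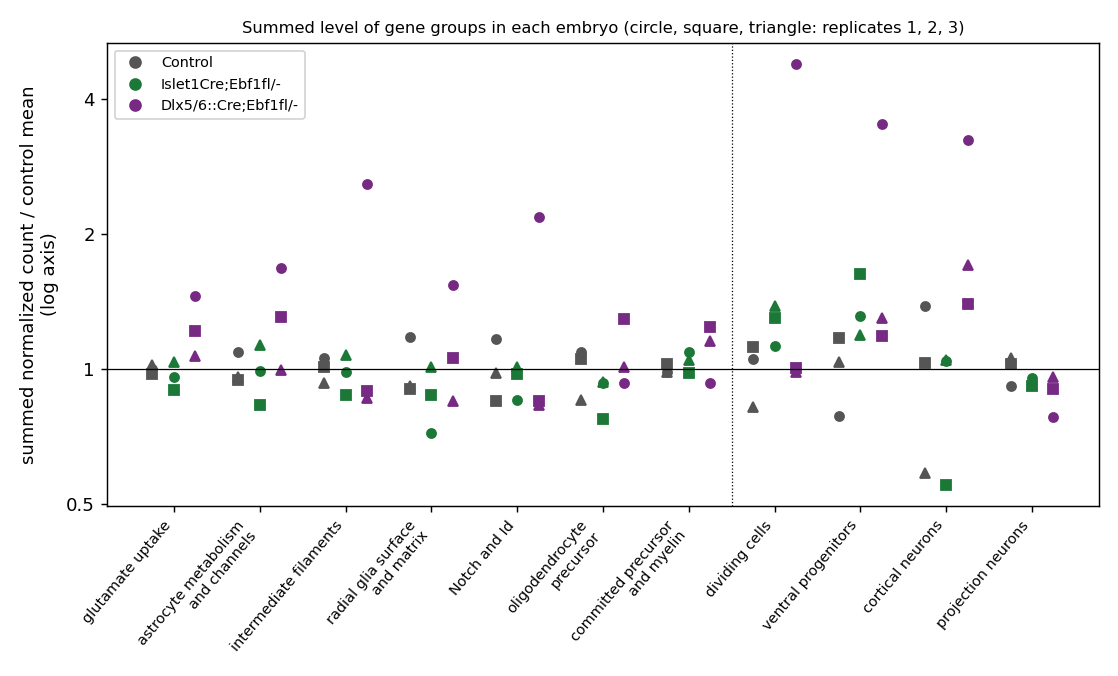
Summed normalized count of each gene group in every embryo, relative to the control mean, on a log axis. Groups left of the dotted line are the glial genes by role, and those to its right are markers of dividing cells, ventral progenitors, cortical excitatory neurons and striatal projection neurons. The first Dlx5/6::Cre;Ebf1fl/- embryo (purple circle) is the highest for the filament and Notch groups and for dividing cells, where it reaches 4.79 times the control mean.

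The genes of oligodendrocyte precursors did not pass the test in any comparison. All 5 had estimates below 0 in the Islet1Cre;Ebf1fl/- embryos, from -0.26 for Cspg4 to -0.17 for Sox10, with intervals that include 0. Cspg4, the NG2 proteoglycan, had 507, 397 and 401 in the controls, 353, 347 and 392 in Islet1Cre;Ebf1fl/- and 484, 409.8 and 342 in Dlx5/6::Cre;Ebf1fl/- embryos. Its 3 values in the Islet1Cre;Ebf1fl/- embryos were just below the lowest control, as was also the case for Gpr17, and 7.28% of all genes tested were separated in this way. Olig1 had 2572, 2300.5 and 1733 in the controls, 2158, 1684 and 2026 in Islet1Cre;Ebf1fl/- and 1971, 2954 and 2294 in Dlx5/6::Cre;Ebf1fl/- embryos, and Olig2 had 887, 893 and 674 in the controls, 781, 564 and 825 in Islet1Cre;Ebf1fl/- and 876, 986 and 788 in Dlx5/6::Cre;Ebf1fl/- embryos. For both factors, the second Dlx5/6::Cre;Ebf1fl/- embryo was the highest of the 9 and the second Islet1Cre;Ebf1fl/- embryo the lowest. Pdgfra ranged from 1002 to 1700.1, with 1700.1 in the second Dlx5/6::Cre;Ebf1fl/- embryo and 1062 in the first. The transcription factor Sox10 followed with 394 and 246 in the same embryos, in a range of 238 to 394.

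Among the genes of committed precursors and myelin, Cnp, a phosphodiesterase of myelinating cells, differed from the rest. It had 692, 840.3 and 719 in the controls, 1097, 1007 and 952 in Islet1Cre;Ebf1fl/- and 1151, 1164 and 1179 in Dlx5/6::Cre;Ebf1fl/- embryos. Every mutant embryo was above every control, and the Dlx5/6::Cre;Ebf1fl/- embryos were above Islet1Cre;Ebf1fl/- embryos. Cnp was the 1 glial gene separated upwards in the Islet1Cre;Ebf1fl/- embryos, where 7.83% of all genes tested were. The log2 fold change was 0.63 (SE 0.0954, adjusted p = 0.00701) in the Dlx5/6::Cre;Ebf1fl/- embryos, and 0.44 (SE 0.0959, adjusted p = 0.074) in Islet1Cre;Ebf1fl/- embryos. Without the first Dlx5/6::Cre;Ebf1fl/- embryo it was 0.64 (adjusted p = 0.00583) and 0.44 (adjusted p = 0.0339), the second of which then passed the threshold, in a fit in which the calls over all genes went from 159 to 397 for Islet1Cre;Ebf1fl/- embryos. The other 3 genes of the group were not called. Gpr17, a receptor of committed precursors, had 736, 678 and 664 in the controls, 652, 548 and 649.7 in Islet1Cre;Ebf1fl/- and 524, 949.7 and 665 in Dlx5/6::Cre;Ebf1fl/- embryos. Mbp, the myelin basic protein gene, had 1083, 1146 and 1180.3 in the controls, 1099.5, 998 and 1106 in Islet1Cre;Ebf1fl/- and 750.2, 1058 and 1162 in Dlx5/6::Cre;Ebf1fl/- embryos. In the first Dlx5/6::Cre;Ebf1fl/- embryo both were the lowest of the 9. Bcas1 ranged from 96.5 to 191, with its top value in the second Dlx5/6::Cre;Ebf1fl/- embryo.

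Cnp lies at chr11:100574904-100591729 on the plus strand and shares 154 exon bases, 4.23% of its exons, with Dnajc7 on the opposite strand. Dnajc7 itself gave a log2 fold change of -0.05 and -0.09 in the Islet1Cre;Ebf1fl/- and Dlx5/6::Cre;Ebf1fl/- embryos (adjusted p = 0.999 and 0.616). Since Ebf1 was the targeted factor, the sequence before the start of Cnp, the gene with the smallest adjusted p among the 29, was taken from the RefSeq promoter table (GRCm38.p6, plus strand, chr11:100574689-100574903). Capitals mark the EBF core motif CCCNNGGG, which is matched at 2 overlapping positions, 61 and 60 bases before the RefSeq start. The GENCODE gene begins 35 bases before that start, and the sequence is shown up to there.
Cnp: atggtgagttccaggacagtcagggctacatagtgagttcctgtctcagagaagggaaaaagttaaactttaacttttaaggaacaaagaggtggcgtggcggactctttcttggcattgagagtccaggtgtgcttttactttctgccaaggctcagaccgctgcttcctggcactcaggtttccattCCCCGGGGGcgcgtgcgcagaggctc
The core reads the same on both strands. It was found in 6 of the 22 glial genes present in that table, in 7 of their 28 windows (25%), against 13.7% of all 32851 windows of that length. The core with T before and A after it was in none of the 28 windows and in 0.904% of all windows. For Slc1a2 the core was not in the window, which belongs to a start within the gene. A match of letters is no evidence of binding.

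The codes of the embryos carry 2 prefixes, IE for controls 1 and 2 and all Islet1Cre;Ebf1fl/- embryos, and D for control 3 and all Dlx5/6::Cre;Ebf1fl/- embryos. The prefix and the genotype are thus partly confounded. With the prefix as a covariate, the log2 fold change in the Dlx5/6::Cre;Ebf1fl/- embryos was 0.54 for Slc1a2 (adjusted p = 0.323) and 0.70 for Cnp (0.128). Over all genes, that fit called 32 genes in place of 392. Within the D prefix, where 1 control is left, the log2 fold changes were 0.54 and 0.69, and since only 2 of 16845 genes were called there, the lack of a call says nothing about them. Within the IE prefix, with 2 controls, Cnp was at 0.41 in Islet1Cre;Ebf1fl/- embryos (0.215). It was not called there, in a fit that called 169 of 16388 genes. The sizes thus stayed near those above, while neither gene was called with the covariate.

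A wider list held 32 further radial glia and astrocyte genes. Of the 31 tested, 25 had estimates above 0 in the Dlx5/6::Cre;Ebf1fl/- embryos, with a median of 0.30, against 52.3% of all genes tested. Without the first embryo 22 did, with a median of 0.11, where 8021 of 16368 genes lay above 0. Against the controls, 1 gene was called in each mutant, and it was the same gene. Over all genes tested, 0.971% were called in the Islet1Cre;Ebf1fl/- embryos. In Dlx5/6::Cre;Ebf1fl/- embryos 1.05% were called higher and 1.34% lower. Ndrg2, a gene of astrocytes, had 2752, 2602 and 2587 in the controls, 4029.8, 3715 and 4227 in Islet1Cre;Ebf1fl/- and 4257, 4466 and 4126 in Dlx5/6::Cre;Ebf1fl/- embryos. Each of the 6 mutant embryos was above each control, with log2 fold changes of 0.59 (SE 0.0733, adjusted p = 0.00745) and 0.69 (SE 0.0731, adjusted p = 0.00161). Of 20 further oligodendrocyte lineage genes, 15 were tested and Sox8 was called in both comparisons. Sox8, a relative of Sox10 that is also found outside the lineage, had 5547, 5013 and 4215 in the controls, 1813, 1462 and 2303 in Islet1Cre;Ebf1fl/- and 1575, 1390.5 and 1409 in Dlx5/6::Cre;Ebf1fl/- embryos. It fell by 1.41 (adjusted p = 0.00458) and by 1.76 (adjusted p = 0.000774) on the log2 scale in the 2 mutants, with no overlap of the values. Sox10, Olig1 and Olig2 were not called. With the prefix as a covariate, Sox8 was still called in both mutants (adjusted p = 0.00662 and 0.0228), and Ndrg2 in Islet1Cre;Ebf1fl/- embryos (0.0440) but not in Dlx5/6::Cre;Ebf1fl/- embryos (0.0512). Without the first Dlx5/6::Cre;Ebf1fl/- embryo, the log2 fold changes in Dlx5/6::Cre;Ebf1fl/- embryos were 0.70 (adjusted p = 0.000999) for Ndrg2 and -1.82 (adjusted p = 0.000405) for Sox8. Late myelin genes were hardly present: Mog had 0 to 5.72 and Opalin 0 to 0.815 normalized counts. None of 19 further Notch and Id genes was called with all embryos (smallest adjusted p = 0.136 in Islet1Cre;Ebf1fl/- and 0.0817 in Dlx5/6::Cre;Ebf1fl/- embryos against the controls). Without the first Dlx5/6::Cre;Ebf1fl/- embryo, the Notch target Hey1 was called lower in both mutants, at -0.59 (adjusted p = 0.00993) and -0.68 (adjusted p = 0.00689), and the ligand Jag2 at -0.47 (adjusted p = 0.0498) in Dlx5/6::Cre;Ebf1fl/- embryos. In that fit the calls over all genes went from 159 to 397 for Islet1Cre;Ebf1fl/- and from 392 to 613 for Dlx5/6::Cre;Ebf1fl/- embryos.

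Markers of other cell types were summed in the same way. Those of striatal projection neurons (5 genes) gave 60617 to 70119, 60898 to 63279 and 51727 to 63532 in controls, Islet1Cre;Ebf1fl/- and Dlx5/6::Cre;Ebf1fl/- embryos. Of the 5, 1 was called lower in the Dlx5/6::Cre;Ebf1fl/- embryos (adjusted p = 0.0305), where 1.34% of all genes tested were. Without the first of these embryos, Foxp1 was called lower, at -0.43 (adjusted p = 0.0319). With the prefix in the fit, 0 of the 5 were called. Microglia and macrophage markers (5 genes) summed to 2149 to 2363 in the controls, 2021 to 2441 in the Islet1Cre;Ebf1fl/- embryos and 2372 to 2558 in Dlx5/6::Cre;Ebf1fl/- embryos. Endothelial and mural markers (6 genes) summed to 5374 to 7092, 5493 to 5756 and 5056 to 6208. Red blood cell markers (5 genes) gave 9110 to 17071, 8071 to 12064 and 9028 to 11022, and the 4 of fibroblasts and meninges 69 to 142, 70 to 148 and 89 to 169. The 4 choroid plexus and ependyma markers summed to 284 to 408, 186 to 301 and 209 to 383, where Ttr had 0 to 15 and Folr1 0 to 1.81, and 1 of them, Clic6, fell by 1.33 in the Dlx5/6::Cre;Ebf1fl/- embryos (adjusted p = 0.0370), and by 1.19 without the first of them (0.0480). Once the prefix entered the fit it was at -0.90 (0.623). For cortical excitatory neurons, 6 of 6 markers had estimates above 0 in the Dlx5/6::Cre;Ebf1fl/- embryos, none called, and 5 of 6 without the first embryo (median 1.01 and 0.60). Their sum was 996 to 2343 in the controls, 937 to 1779 in Islet1Cre;Ebf1fl/- embryos and 2369 to 5495 in Dlx5/6::Cre;Ebf1fl/- embryos. For dividing cells the sums were 2607 to 3537, 3550.0 to 4374 and 3119 to 15122, and for ventral progenitors 4059 to 6057, 6141 to 8381 and 6100.0 to 18165. Their part in the Slc1a2, Apoe and Gja1 values was not tested.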

How the data were processed

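Poly(A) RNA of 9 striata was sequenced from stranded TruSeq libraries. According to the study and the submitters' processing notes, the authors aligned reads with STAR 2.4.0k to mm10, removed multi-mapping reads and deposited raw counts per Ensembl gene from HTSeq 0.5.3, testing them with DESeq 1.8.3. The strand setting of the counting is not given in the sources used here. Samples were grouped by their labelled genotype. Counts were fitted with edgeR 4.0.16 in R 4.3.3 (TMM, filterByExpr with a minimum count of 10, quasi-likelihood test, 3 groups, no covariate). Normalized counts used DESeq2 1.42.0 size factors, and TPM the union of exons in GENCODE M21. Of the 44886 identifiers, 44133 were found there. The fit was tested on simulated data. The members and lists were chosen with earlier results of these data known. All 30 genes were named: those called or separated, and the 2 of each role with the highest TPM, with every embryo. Genes of other lists were named only where called; Mt1, Mt2, Hepacam, Sox9, Hey1, Jag2, Tnr, Mog, Opalin, Ttr and Folr1 were chosen after their values were seen. Alternatives were DESeq2, other scaling and filters, the 6 samples compared, a replicate block, the embryo code prefix and each embryo left out.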

Additional observations from a re-analysis of the deposited data

How the results depend on the processing

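With 3 embryos a group, the intervals of most genes included 0. Of the 1450 values of single glial genes under the alternatives, 1434 kept their side of the threshold, 11 lost it, 5 gained it, and 63 had the other sign without being called in either fit. Against the controls, the number of glial genes called in the Islet1Cre;Ebf1fl/- embryos was 0, and 1 with DESeq2; leaving out each embryo in turn gave 0 to 1. In the Dlx5/6::Cre;Ebf1fl/- embryos it was 2, and 3 with DESeq2, 3 with no filter on low counts, 1 with only the 6 samples of the comparison, 1 with the replicate block, 0 when the prefix of the embryo code entered the fit and 0 within the prefix (chosen after seeing the data; with 1 control left this is no test of stability); leaving out each embryo gave 1 to 2. Between the mutants it was 0, and 1 with DESeq2, which called 17 of 15632 genes in that comparison. The log2 fold change of Slc1a2 was 0.54 with the prefix as a covariate, 0.48 with 6 samples, 0.48 with the replicate block and 0.54 within the prefix, none called, and 0.43 to 0.55 with each embryo left out. That of Cnp was 0.70 with the prefix as a covariate and 0.69 within the prefix, neither called. The replicate block had no basis in the design. After centring within each group, embryos of the same number correlated at a mean of -0.02 (9 pairs, -0.23 to 0.18). Those of different numbers correlated at 0.01 (18 pairs, -0.18 to 0.15). No pairing by number was thus seen on average, which does not exclude it for single numbers. The median TPM was 17.9, and 19.9 with the longest transcript in place of the union of exons. Over all genes, calls in the Islet1Cre;Ebf1fl/- and Dlx5/6::Cre;Ebf1fl/- embryos numbered 159 and 392 in edgeR, 395 and 873 in DESeq2, 311 and 708 with no filter, 259 and 181 with 6 samples, 397 and 613 without the first Dlx5/6::Cre;Ebf1fl/- embryo, and 61 and 32 with the prefix in the fit. The causes of these changes were not tested.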

Other observations

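Of the wider lists, 9 further radial glia and astrocyte genes had all 3 Dlx5/6::Cre;Ebf1fl/- embryos above all 3 controls, where 9.63% of all genes tested did. Of these, 8 were not called. Among them, the metallothioneins Mt1 and Mt2 had log2 fold changes of 0.79 (SE 0.267, adjusted p = 0.182) and 1.05 (SE 0.436, adjusted p = 0.279), the adhesion protein gene Hepacam 0.56 (SE 0.181, adjusted p = 0.165) and Sox9, a factor of glial fate, 0.42 (SE 0.147, adjusted p = 0.197). They were 0.38, 0.29, 0.51 and 0.32 when the first Dlx5/6::Cre;Ebf1fl/- embryo was left out. These genes are given after their values were seen. In the Islet1Cre;Ebf1fl/- embryos, the same 4 genes gave -0.04, 0.22, -0.04 and -0.00, against the same controls. Tnr, encoding the matrix protein tenascin R of oligodendrocyte lineage cells and neurons, was called higher in the Dlx5/6::Cre;Ebf1fl/- embryos when the first of them was left out, at 0.61 (adjusted p = 0.0123), and not called with all embryos, at 0.49 (SE 0.128, adjusted p = 0.0827).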
